A study of Mus musculus with 6 samples.

Results

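Spp1, Mmp12, Gpnmb and Dcstamp are 4 of the 8191 genes listed in an mRNA-seq table of splenic myeloid-derived suppressor cells (MDSCs), and all 4 were found by their gene symbols. They were chosen by their FPKM values in these same samples, as genes that were high in WT and close to 0 or at 0 in both knockouts, so their levels are given as a description and without a test. The study examined what loss of either receptor of tumour necrosis factor (TNF) does to MDSCs of old mice. Its 3 groups were aged WT, Tnfr1-/- and Tnfr2-/- mice of 18 to 24 months, all on the BALB/c background, with 2 samples a group. Each sample held the MDSCs pooled from 5 mice. The splenic MDSCs were taken with an isolation kit, of the phenotype CD45+ Gr1+ CD11b+. The study's RNA-seq methods name no culture or treatment of these cells before RNA extraction. RNA of the cells gave single-end reads of 50 bases. The knockout strains were made in the study's laboratory, and no restriction of the deletion to a cell type is given for them.

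Lipid-laden macrophages are macrophages that have taken up cholesterol-rich lipoproteins or debris, as in atherosclerotic plaques, obese fat and damaged tissue, and they are known for a programme of lipid uptake, lysosomal breakdown and matrix remodelling. Spp1 encodes osteopontin, a secreted phosphoprotein that binds integrins and CD44. Mmp12 encodes macrophage elastase, a secreted metalloproteinase that cleaves elastin. Gpnmb encodes a transmembrane glycoprotein of late endosomes and lysosomes, a target of the MiT/TFE transcription factors. Dcstamp encodes a multipass membrane protein needed for the fusion of osteoclast precursors and macrophages into multinucleated cells.

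The promoter windows of the 3 genes found in the RefSeq promoter table (GRCm38.p6) are shown because these genes shared one pattern across the 6 samples. Each window is the 250 bases before the RefSeq start site that lies near the largest number of GENCODE transcript starts, written 5′ to 3′ on the plus strand. All 4 genes lie on that strand. The Spp1 window is chr5:104434861-104435110, the Mmp12 window chr9:7347124-7347373 and the Gpnmb window chr6:49036268-49036517. Capitals mark matches to 3 motifs searched on both strands. These were TGANTCA, bound by AP-1 factors, GAGGAA, the core of sites for ETS factors such as PU.1, and TCANGTG, an E-box form bound by MiT/TFE factors. The first and the last of these patterns can share the letters TCA, but no matches overlapped in these windows.
Spp1: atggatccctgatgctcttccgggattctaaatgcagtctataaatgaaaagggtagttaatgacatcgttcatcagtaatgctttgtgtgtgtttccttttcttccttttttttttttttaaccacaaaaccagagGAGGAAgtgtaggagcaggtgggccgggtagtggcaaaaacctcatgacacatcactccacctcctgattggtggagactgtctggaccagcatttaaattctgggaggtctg
Mmp12: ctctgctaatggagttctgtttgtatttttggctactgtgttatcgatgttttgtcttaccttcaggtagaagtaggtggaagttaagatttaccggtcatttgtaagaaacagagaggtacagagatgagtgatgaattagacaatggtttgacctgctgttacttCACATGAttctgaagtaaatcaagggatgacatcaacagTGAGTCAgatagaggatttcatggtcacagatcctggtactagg
Gpnmb: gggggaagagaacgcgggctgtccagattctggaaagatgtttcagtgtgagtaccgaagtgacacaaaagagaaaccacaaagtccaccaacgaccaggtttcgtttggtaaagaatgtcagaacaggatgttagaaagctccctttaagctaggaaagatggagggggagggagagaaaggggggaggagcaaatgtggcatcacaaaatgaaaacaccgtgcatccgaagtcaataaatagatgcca

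The Spp1 window held a GAGGAA match 113 bases before the start site. The Mmp12 window held the AP-1 match TGAGTCA 44 bases before the start and the E-box match CACATGA, which reads TCATGTG on the other strand, 83 bases before it. The Gpnmb window held none of the 3 motifs. Among 32851 promoter windows of the same length, 6.75% held TGANTCA, 23.3% held GAGGAA and 12.2% held TCANGTG. None of these letter patterns was thus particular to these genes. The windows held no exon base of their own genes.

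In the GENCODE M21 annotation of GRCm38 (mm10), Spp1 spans 104435118 to 104441050 on chromosome 5 with 6 exons in its longest basic protein-coding transcript, and Mmp12 spans 7344381 to 7369499 on chromosome 9 with 10 exons. Gpnmb spans 49036546 to 49070929 on chromosome 6 with 11 exons. Dcstamp spans 39745930 to 39760938 on chromosome 15 with 4 exons. The 4 genes therefore lie on 4 different chromosomes. Of the 50-base windows of the spliced transcript, 132 of 1458 (9.05%) in Spp1 also occur in Gm42793, a short transcript model on the same strand inside the gene, and 0 of the windows of Mmp12, Gpnmb or Dcstamp occur in another gene. The 3' end of Mmp12 overlaps Mmp1b on the opposite strand, and whether the counting used strand is not given in the sources used here.

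Spp1 was listed at 3119 and 3238 FPKM in the WT samples, 1.67 and 1.26 FPKM in the Tnfr1-/- samples and 2.52 and 1.81 FPKM in the Tnfr2-/- samples. FPKM are fragment numbers divided by transcript length and by library size, so levels of different genes can be set side by side. Both WT samples stood far above all 4 knockout samples, and the lowest WT value was 1236 times the highest knockout value. The group means were 3179 ± 84.4 FPKM in WT, 1.47 ± 0.293 in Tnfr1-/- and 2.17 ± 0.503 in Tnfr2-/- (SD, n = 2 each). In WT, Spp1 had the rank 10 among the 8191 genes by mean FPKM and made up 0.919% of the FPKM summed over them.

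Mmp12 was listed at 1095 and 994 FPKM in WT, 0.221 and 0.386 FPKM in Tnfr1-/- and 0.430 and 0.401 FPKM in Tnfr2-/- samples. The order of the groups was that of Spp1, with WT apart from both knockouts, and the lowest WT value was 2313 times the highest knockout value. The means were 1045 ± 71.5 FPKM in WT, 0.303 ± 0.117 in Tnfr1-/- and 0.415 ± 0.0207 in Tnfr2-/- (SD, n = 2 each). Its WT mean had the rank 32 and was 0.302% of the summed FPKM.

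Gpnmb was listed at 699 and 675 FPKM in WT, 0.0701 and 0.0891 FPKM in Tnfr1-/- and 0.0734 and 0.0732 FPKM in Tnfr2-/- samples. It had the widest gap of the 3 genes with knockout values above 0, the lowest WT value being 7581 times the highest knockout value. The means were 687 ± 16.8 FPKM in WT, 0.0796 ± 0.0134 in Tnfr1-/- and 0.0733 ± 0.000142 in Tnfr2-/- (SD, n = 2 each). The WT mean had the rank 55 and was 0.199% of the summed FPKM.

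Dcstamp was listed at 21.8 and 20.4 FPKM in WT and at 0 in all 4 knockout samples, so no fold is given for it. Its WT mean of 21.1 ± 0.999 FPKM (SD, n = 2) had the rank 2283, far below the other members. Of the 8191 genes, 158 were listed at 0 in all 4 knockout samples, and 23 of these had both WT values at 1 FPKM or more. Dcstamp was the fifth highest of these 23 in WT, after Ccl17 (95.6 and 87.5 FPKM), a chemokine, Fabp1 (32.1 and 43.0 FPKM), a fatty acid binding protein of liver and gut, Rbp4 (28.1 and 26.2 FPKM), a carrier of retinol, and Gm42226 (23.0 and 25.3 FPKM). These 4 genes were named after their values were seen. In the other direction, 136 genes were listed at 0 in both WT samples.

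**Figure D1:**
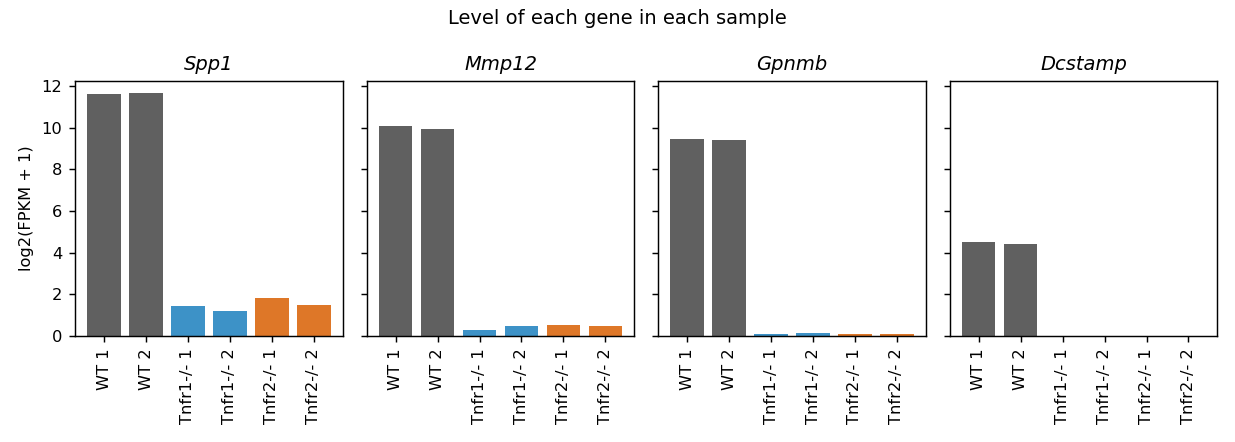
Bars give log2(FPKM + 1), from 0, for each of the 6 samples (WT grey, Tnfr1-/- blue, Tnfr2-/- orange), with 1 panel for each gene and 1 shared scale. In every panel both WT bars stand above all knockout bars, from 3119 and 3238 FPKM for Spp1 down to 21.8 and 20.4 FPKM for Dcstamp, whose knockout values are all 0.

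On the log2(FPKM + 1) scale used for all differences here, the difference of Tnfr2-/- from WT was -9.98 for Spp1, -9.53 for Mmp12 and -9.32 for Gpnmb. For Tnfr1-/- it was -10.34, -9.65 and -9.32. These comparisons share the 2 WT samples, so the likeness of the values is not independent evidence. In both, Spp1, Mmp12 and Gpnmb had the ranks 1, 2 and 3 among all 8191 genes from the most negative difference, a position that the choice of the genes makes likely. As ratios of means, WT exceeded Tnfr2-/- 1466 times for Spp1, 2516 times for Mmp12 and 9380 times for Gpnmb, and exceeded Tnfr1-/- 2168, 3444 and 8632 times. The ratios rest on knockout values near the bottom of the scale at a depth that is unknown. The log2 differences, for which 1 FPKM was added first, understate the change of such low values.

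All 4 genes had every knockout sample below every WT sample, in both comparisons. This held for 77.2% of all listed genes for Tnfr2-/- and 77.3% for Tnfr1-/-. By limma with Benjamini-Hochberg adjustment over all listed genes, at an adjusted p under 0.05 and a fold change over 1.5, 57.1% of the 8191 genes were called lower in Tnfr2-/- than in WT and 13.6% higher. For Tnfr1-/- the shares were 60.7% and 14.1%. The median difference of all genes was -0.74 for Tnfr2-/- and -0.83 for Tnfr1-/-. When the samples were rescaled by median-ratio size factors, which brought these medians to -0.03 in both, 1717 genes were called lower and 1787 higher in Tnfr2-/-, and 1814 lower and 1908 higher in Tnfr1-/-. With that rescaling, Spp1 stood at 1870 and 1952 in WT against 1.70 to 3.19 in the knockouts, Mmp12 at 657 and 599 against 0.287 to 0.544, Gpnmb at 419 and 407 against 0.0831 to 0.120, and Dcstamp at 13.1 and 12.3 against 0.

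**Figure D2:**
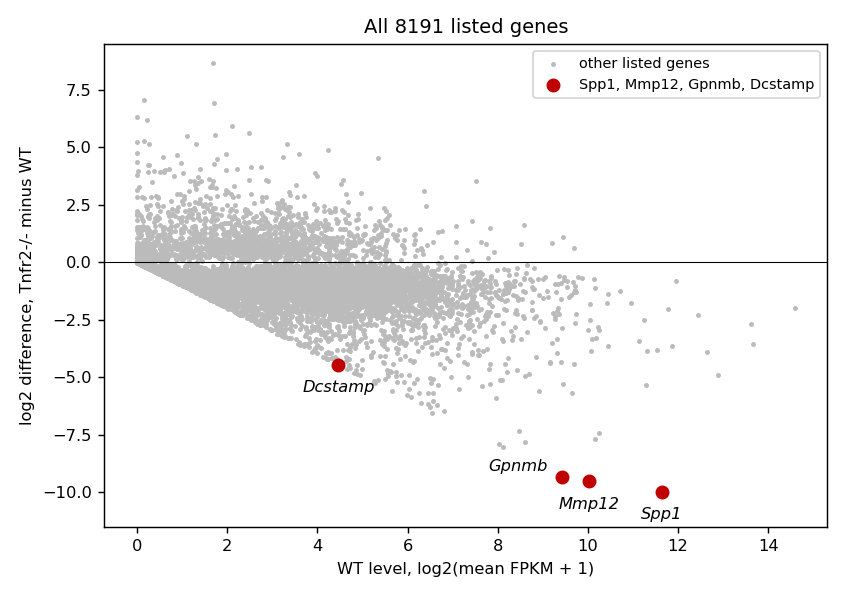
Each grey point is 1 of the 8191 listed genes, with the WT level as log2(mean FPKM + 1) across and the difference Tnfr2-/- minus WT on the log2(FPKM + 1) scale upward, and the 4 members are in red. Spp1, Mmp12 and Gpnmb lie lowest, at -9.98, -9.53 and -9.32, while Dcstamp sits on the lower edge, where genes listed at 0 in the knockout lie and the added 1 FPKM sets the position.

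Among the 451 genes with both WT values at 100 FPKM or more, 6 had all 4 knockout values under 1 FPKM. Mmp12 and Gpnmb were among them, and Spp1 was not, because its knockout values were 1.26 to 2.52 FPKM. The other 4 were Marco, a scavenger receptor of macrophages (409 and 372 FPKM in WT, 0.450 to 0.854 in the knockouts), Plet1, a surface protein (271 and 282 FPKM, 0 to 0.118), Atp6v0d2, a subunit of the lysosomal and osteoclast proton pump (267 and 252 FPKM, 0.0320 to 0.122), and Mgl2, a macrophage and dendritic cell lectin (114 and 109.6 FPKM, 0.0788 to 0.356). The limits of 100 and 1 FPKM were chosen after the values were seen.

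The genes with the most similar profile were found by the root mean square difference of log2(FPKM + 1) over the 6 samples, after each gene's own mean was taken off. For Spp1 these were Plet1 (1.00), Marco (1.05) and Lpl (1.06), for Mmp12 Plet1 (0.720), Marco (0.786) and Atp6v0d2 (0.790), and for Gpnmb Plet1 (0.590), Atp6v0d2 (0.663) and Marco (0.667). For Dcstamp they were Adamtsl5 (0.0207), P2ry14 (0.0335) and Cbln1 (0.0995). Adamtsl5 lay nearest, at 21.3 and 20.3 FPKM in WT and 0 to 0.0255 in the knockouts. The profiles of Spp1, Mmp12 and Gpnmb thus had neighbours of other genes at a distance of 0.590 or more, and that of Dcstamp, a smaller difference, had much nearer ones. With 1 level for WT and 1 for the knockouts, the distance measures little beyond the size of that step, and 6 of the 12 names were kept with a pseudocount of 0.1 and 10 with median-ratio size factors.

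Between the knockouts the members differed little. Spp1 was 1.48 times as high in Tnfr2-/- as in Tnfr1-/- by the means, a difference of 0.36 on the log2 scale, with SDs on that scale of 0.23 and 0.17. Mmp12 was 1.37 times as high, a difference of 0.12 with SDs of 0.02 and 0.13. For both genes the samples of the groups did not overlap, which held for 34.9% of all listed genes with Tnfr2-/- higher and 16.1% with Tnfr2-/- lower. Gpnmb in Tnfr2-/- lay inside the range of the Tnfr1-/- samples, at a ratio of 0.920, and Dcstamp was at 0 throughout. Over the whole table, 0.842% of genes were called higher and 0.61% lower in Tnfr2-/- than in Tnfr1-/-, or 69 and 50 genes. These counts were not stable, falling to 0 and 0 by limma in a fit of the knockouts alone (with 1436 genes at an unadjusted p under 0.05) and ranging from 0 to 535 higher and from 1 to 127 lower when 1 sample was left out, with the highest counts without Tnfr2-/- replicate 1.

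**Figure D3:**
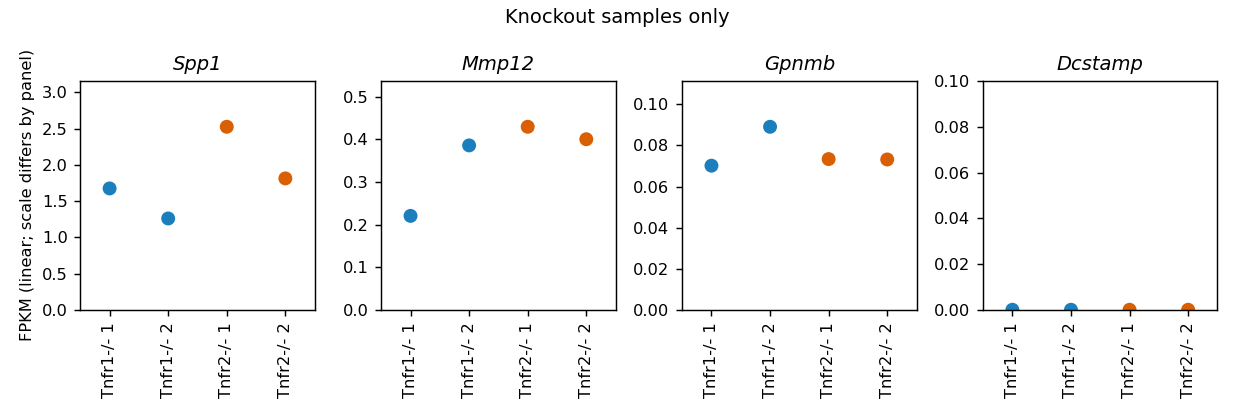
Points give the FPKM of each gene in the 4 knockout samples on linear axes that start at 0 and differ by panel (Tnfr1-/- blue, Tnfr2-/- orange). Spp1 runs from 1.26 to 2.52 FPKM and Mmp12 from 0.221 to 0.430, with the Tnfr2-/- points higher in both, Gpnmb stays between 0.0701 and 0.0891, and Dcstamp is at 0.

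The replicates of WT agreed closely. The ratio of the first WT value to the second was 0.963 for Spp1, 1.10 for Mmp12, 1.04 for Gpnmb and 1.07 for Dcstamp. Over all genes the median SD between replicates, on the log2 scale, was 0.04 in WT, 0.07 in Tnfr1-/- and 0.11 in Tnfr2-/-.

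Several other features of the samples followed the same division of WT from both knockouts. The listed genes summed to 344714 and 346870 FPKM in WT and to 133604 to 155248 FPKM in the knockouts. WT values were written with up to 10 significant digits and knockout values with up to 6. For genes under 0.1 FPKM in both samples of a group, the ratio of the 2 samples was set against ratios of small whole numbers. In each group 1 scale factor was allowed, chosen to give the most matches within 0.05%. The share of genes matched was 74.5% in WT, against 5.10% in Tnfr1-/- and 4.76% in Tnfr2-/-. The 4 Y-linked genes Ddx3y, Eif2s3y, Kdm5d and Uty were listed at 0.491 to 3.79 FPKM in WT and at 0 in every knockout sample, whereas the study's methods give mice matched for sex. The genotype, any difference in the sex of the pooled mice and the way the values were made cannot be told apart here. Tnfrsf1b, which encodes TNFR2, was listed at 112 and 115 FPKM in WT, 47.8 and 69.6 FPKM in Tnfr1-/- and 11.3 and 14.3 FPKM in Tnfr2-/-. It was thus lowest in the samples labelled Tnfr2-/- but was not at 0 there. Its differences from WT of -3.06 for Tnfr2-/- and -0.96 for Tnfr1-/- became -2.09 and 0.17 with median-ratio size factors, the latter no longer called. The Tnfr1 gene itself was not analysed here.

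The cell-type markers divided the samples in the same way. All 8 listed genes of the 30 neutrophil and monocyte markers that would mark MDSCs were called higher in both knockouts than in WT. Over all genes 13.6% were called higher in Tnfr2-/- and 14.1% in Tnfr1-/-, and every listed gene had been selected for a difference. The summed level of the 8 markers was 133 and 138 FPKM in WT against 2334 to 3644 FPKM in the knockouts. Retnlg, a neutrophil gene, was at 2.30 and 2.13 FPKM in WT and 1049 to 2364 FPKM in the knockouts, with a difference of 8.68 (SE 0.24, limma adjusted p = 1.58e-05) for Tnfr2-/-. Ly6c1, which encodes one of the antigens seen by Gr1 antibodies, was at 0.159 and 0.0638 FPKM in WT and 95.8 to 178 FPKM in the knockouts. Trem1, an activating receptor of neutrophils and monocytes, was at 2.20 and 2.15 FPKM against 30.2 to 41.6 FPKM, and Ptprc, which encodes CD45, at 98.2 and 105 FPKM against 229 to 271 FPKM. The WT samples, in which the 4 members were high, were therefore lower in these 8 markers than the knockouts, and not at 0. Most of the WT sum came from Ptprc. Itgam, Ly6g, S100a8 and S100a9 were not analysed here.

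Of the 20 listed genes among 24 splenic macrophage markers, 17 were called lower and 1 higher in Tnfr2-/- than in WT. In Tnfr1-/- 19 were called lower and 1 higher. Over all genes 57.1% were called lower in Tnfr2-/- and 60.7% in Tnfr1-/-. The summed level of the macrophage markers was 34530 and 37126 FPKM in WT against 3704 to 7667 FPKM in the knockouts. Most of this sum came from a few highly expressed genes of the list, so it does not weigh the markers evenly. None of the 20 was at 0 in WT. Marco fell most in this list, with a difference of -7.79 (SE 0.09, limma adjusted p = 5.35e-06) for Tnfr2-/- and -8.07 (SE 0.09, limma adjusted p = 5.13e-06) for Tnfr1-/-. The lysosomal protease gene Ctsd was at 7249.5 and 7829 FPKM in WT and 206 to 324 FPKM in the knockouts. Csf1r, the receptor of the macrophage growth factor, was at 225 and 237 FPKM in WT and 71.3 to 171 FPKM in the knockouts, and its difference for Tnfr2-/- changed from -0.59 to 0.40 with median-ratio size factors, and for Tnfr1-/- from -1.50 to -0.36, no longer called. The exception was Cd163, a haemoglobin scavenger receptor, which was higher in the knockouts at 1.67 to 2.38 FPKM than in WT at 0.347 and 0.359 FPKM. With median-ratio size factors, 13 macrophage markers were called lower in Tnfr2-/- and 11 in Tnfr1-/-, against 1717 and 1814 of all 8191 genes. In bulk samples such as these, fewer cells of a type and less RNA of the gene per cell cannot be told apart, and the part of cell composition in the levels of Spp1, Mmp12, Gpnmb and Dcstamp was not tested.

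Of 14 listed dendritic cell markers, 11 were called lower and 1 higher in each knockout than in WT. Over all genes 57.1% were called lower in Tnfr2-/- and 60.7% in Tnfr1-/-. The summed level of the dendritic cell markers was 6879 and 7235 FPKM in WT against 1085 to 1840 FPKM in the knockouts. After median-ratio scaling 7 of the 14 were called lower in Tnfr2-/- and 9 in Tnfr1-/-, against 1717 and 1814 of all 8191 genes. Itgax, which encodes CD11c, was at 219 and 216 FPKM in WT and 12.5 to 17.1 FPKM in the knockouts. H2-Ab1, an MHC class II chain, was at 1174 and 1261 FPKM and 119 to 213 FPKM. Itgae, an integrin chain of a dendritic cell subset, was at 1.26 and 1.20 FPKM and 0.183 to 0.682 FPKM, and Flt3, a growth factor receptor of dendritic cell precursors, at 0.156 and 0.260 FPKM and 1.21 to 2.34 FPKM. Of 8 listed lymphocyte markers, 6 were called higher and 1 lower in Tnfr2-/-, against 13.6% of all genes called higher. In Tnfr1-/- 7 of the markers were called higher and 1 lower, against 14.1% of all genes called higher. Their summed level was 244 and 282 FPKM in WT and 1240 to 2375 FPKM in the knockouts, most of it from Jchain, the joining chain of secreted antibodies, at 165 and 198 FPKM and 879 to 2186 FPKM. Pax5, a B cell factor, was at 0.990 and 0.775 FPKM and 7.46 to 18.2 FPKM, Cd3d, a T cell receptor chain, at 3.21 and 3.39 FPKM and 6.78 to 16.4 FPKM, and Cd4, which was called lower in both knockouts, at 24.2 and 25.7 FPKM and 3.86 to 4.89 FPKM. Of 3 listed erythroid, platelet and stromal markers, 1 was called higher and 1 lower in each knockout. Pf4, a platelet chemokine that macrophages also express, was at 104 and 118 FPKM in WT and 3.12 to 4.30 FPKM in the knockouts, and Slc4a1, the anion exchanger of red cells, was listed at 0 in WT and at 0.409 to 2.30 FPKM in the knockouts.

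The genes that work beside the 4 members were counted in 5 lists. The lipid-handling macrophage list held 32 listed genes of 33, of which 31 were called lower and 1 higher in Tnfr2-/- than in WT, and 31 lower and 0 higher in Tnfr1-/-. The shares over all genes were 57.1% lower and 13.6% higher for Tnfr2-/-, and 60.7% and 14.1% for Tnfr1-/-. The median difference of the list was -3.44 for Tnfr2-/- and -3.76 for Tnfr1-/-, against -0.74 and -0.83 over all genes. With median-ratio size factors, 29 were called lower and 1 higher in Tnfr2-/-, against 1717 lower and 1787 higher of all 8191 genes. Fabp5, a fatty acid carrier, was at 1167 and 1114 FPKM in WT and 2.90 to 5.34 FPKM in the knockouts, with a difference of -7.68 (SE 0.15, limma adjusted p = 7.08e-06) for Tnfr2-/-. Lpl, which releases fatty acids from lipoproteins, was at 1201 and 1233 FPKM in WT and 1.36 to 6.81 FPKM in the knockouts, with a difference of -7.41 (SE 0.15, limma adjusted p = 7.37e-06). The lipid receptor gene Trem2, which drives much of this programme, was at 87.9 and 92.1 FPKM in WT and 1.82 to 6.98 FPKM in the knockouts, while Tyrobp, the adaptor through which TREM2 signals, was at 828 and 823 FPKM and 881 to 1343 FPKM. Tyrobp was the 1 gene of the list called higher in Tnfr2-/- (limma adjusted p = 0.0299), a call lost when the replicate number was a block or any 1 of WT replicate 1, WT replicate 2 or Tnfr2-/- replicate 1 was left out. After median-ratio scaling its difference was 1.60 for Tnfr2-/- and 1.30 for Tnfr1-/-, and it was called higher in both. Npc2, which moves cholesterol out of lysosomes, had differences of -1.41 for Tnfr2-/- and -2.23 for Tnfr1-/-. Median-ratio scaling made these -0.42, no longer called, and -1.09.

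Between the knockouts, Lpl, Trem2 and Apoe, the lipid carrier protein gene, were called higher and Abca1, the cholesterol exporter gene, was called lower in Tnfr2-/- than in Tnfr1-/-. Lpl was at 6.81 and 5.59 FPKM in Tnfr2-/- against 2.00 and 1.36 FPKM in Tnfr1-/-, a difference of 1.43 (SE 0.15, limma adjusted p = 0.0349). Trem2 was at 5.15 and 6.98 against 1.98 and 1.82 FPKM. Over the 156 genes of all lists, 11 were called between the knockouts with the WT samples in the model. The shares over all 8191 genes were 0.842% called higher and 0.61% called lower. With only the knockout samples in the model, 0 of the 156 were called by limma, though all 11 kept an unadjusted p under 0.05.

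**Figure D4:**
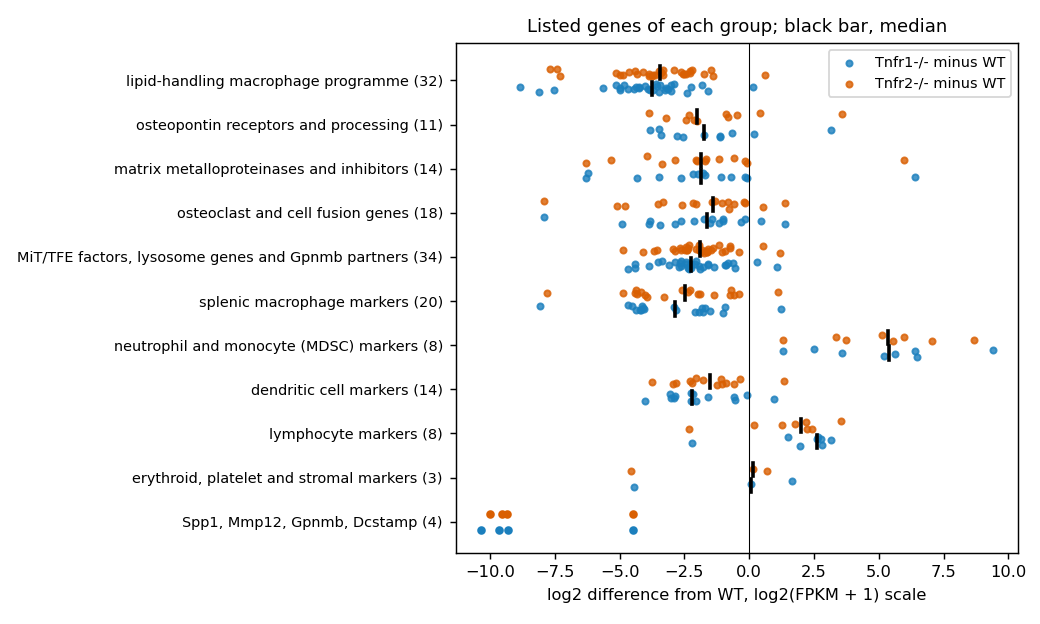
Each point is 1 listed gene, placed by its difference from WT on the log2(FPKM + 1) scale for Tnfr1-/- (blue) and Tnfr2-/- (orange), with 1 row for each list, the number of listed genes in parentheses and a black bar at the median. In the last row Spp1, Mmp12 and Gpnmb, down to -10.34, lie left of all other points, the lipid-handling list has medians of -3.44 and -3.76, and the MDSC markers lie to the right of 0 with medians of 5.34 and 5.41.

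For osteopontin, 11 of 20 genes of receptors, signalling and processing were listed, with 8 called lower and 1 higher in Tnfr2-/- and 9 lower and 1 higher in Tnfr1-/-. Over all genes 57.1% and 60.7% were called lower, so without rescaling these counts lie not far above the background. With median-ratio size factors 6 were called lower and 1 higher in Tnfr2-/-, against 1717 lower and 1787 higher of all 8191 genes. Fam20c, the kinase that phosphorylates osteopontin, was at 72.5 and 74.5 FPKM in WT and 3.10 to 5.66 FPKM in the knockouts, with a difference of -3.87 (SE 0.29, limma adjusted p = 0.000234) for Tnfr2-/-. Src, a kinase downstream of the integrins, was at 12.2 and 12.2 FPKM in WT and 0.129 to 0.446 FPKM in the knockouts. The receptor genes differed among themselves. Itga4, an integrin chain of lymphocytes and monocytes, was higher in the knockouts at 57.8 to 90.6 FPKM than in WT at 6.46 and 5.99 FPKM, with a difference of 3.57 (SE 0.11, limma adjusted p = 2.03e-05). Itgb1 was at 106 and 111 FPKM in WT and 45.7 to 72.1 FPKM in the knockouts, and its differences of -0.83 and -1.13 became 0.15 and 0.0005 with median-ratio size factors. Itgav, the chain that pairs with several beta chains to bind osteopontin, was at 9.48 and 9.36 FPKM in WT and 5.42 to 7.04 FPKM in the knockouts, and its differences of -0.45 and -0.66 likewise turned positive, to 0.42 and 0.34. Itgb5 and Itga5, integrin chains named after their values were seen, were called lower in both knockouts and remained so with median-ratio size factors, Itgb5 at -1.49 and -2.34 and Itga5 at -1.20 and -1.46. Cd44 and Itgb3 were not analysed here.

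Mmp12 was the highest of the listed metalloproteinase genes in WT. Of the 29 other genes in the list of metalloproteinases, their inhibitors and some further genes of matrix turnover, 14 were listed. In Tnfr2-/- 10 were called lower and 1 higher, and in Tnfr1-/- 11 lower and 1 higher. Those called lower in both knockouts include Bsg, Plau and Plaur, which are not metalloproteinases or their inhibitors. Without rescaling these counts too lie not far above the 57.1% and 60.7% of all genes called lower. With median-ratio size factors 9 were called lower and 1 higher in Tnfr2-/-, against 1717 lower and 1787 higher of all 8191 genes. Mmp13, a collagenase, was at 90.1 and 88.1 FPKM in WT and 0.0438 to 0.261 FPKM in the knockouts, a difference of -6.29 (SE 0.12, limma adjusted p = 7.09e-06) for Tnfr2-/- and -6.29 (SE 0.12, limma adjusted p = 6.73e-06) for Tnfr1-/-. Mmp14, a membrane-bound metalloproteinase, was at 97.2 and 104 FPKM in WT, and its knockout values ranged from 0.254 to 3.35 FPKM, the highest being Tnfr2-/- replicate 2. Mmp9, a gelatinase stored in neutrophil granules, ran the other way, with 3.13 and 3.46 FPKM in WT and 187 to 411 FPKM in the knockouts, a difference of 5.95 (SE 0.35, limma adjusted p = 0.000109) for Tnfr2-/- and 6.40 (SE 0.35, limma adjusted p = 7.79e-05) for Tnfr1-/-. Timp1, an inhibitor of these enzymes, was at 1.09 and 1.46 FPKM in WT, at 0.114 FPKM in 1 Tnfr1-/- sample and at 0 in the other knockout samples. No gene of this list was called between the knockouts.

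**Figure D5:**
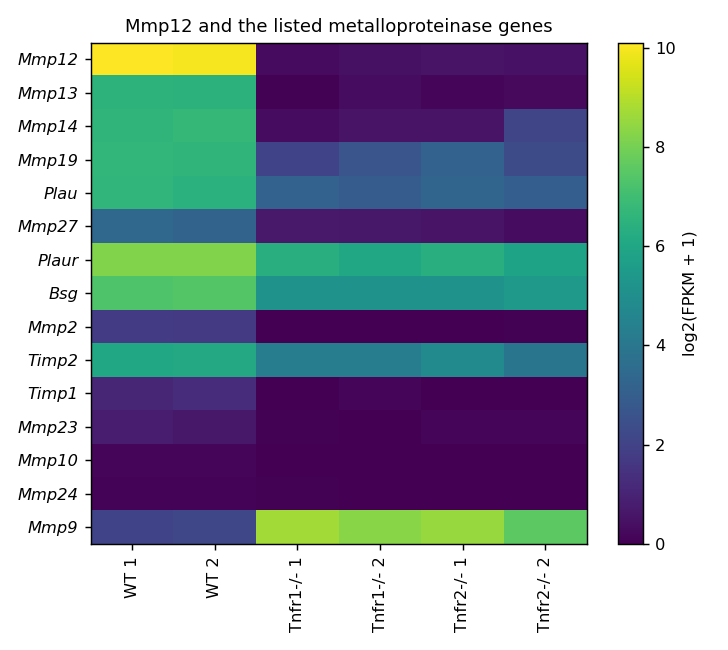
Colour gives log2(FPKM + 1), from 0 to about the WT level of Mmp12, for Mmp12 and the 14 listed genes of the metalloproteinase list (rows) in the 6 samples (columns). Mmp12 is the brightest row in WT at 1095 and 994 FPKM, and Mmp9 in the last row is bright in the knockouts only, at 187 to 411 FPKM against 3.13 and 3.46 FPKM in WT.

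For Dcstamp, 18 of 30 osteoclast and cell fusion genes were listed, with 14 called lower and 1 higher in each knockout, against 57.1% and 60.7% of all genes called lower. With median-ratio size factors the counts for Tnfr2-/- were 8 lower and 3 higher, against 1717 lower and 1787 higher of all 8191 genes. Ocstamp, which encodes the closest partner of DC-STAMP in cell fusion, was at 2.97 and 2.95 FPKM in WT and 0.753 to 1.33 FPKM in the knockouts. Its difference was -0.81 (SE 0.12, limma adjusted p = 0.00184) for Tnfr2-/- and -1.02 (SE 0.12, limma adjusted p = 0.000759) for Tnfr1-/-, and both calls were lost with median-ratio size factors, at -0.15 and -0.29, and with quantile normalization. Nfatc1, the factor known to switch on Dcstamp in osteoclast precursors, was higher in the knockouts at 21.9 to 28.5 FPKM than in WT at 9.12 and 8.87 FPKM, with a difference of 1.38 (SE 0.17, limma adjusted p = 0.00104) for Tnfr2-/-, and was the 1 gene of the list called higher. Atp6v0d2, also needed for osteoclast fusion, had a difference of -7.90 (SE 0.09, limma adjusted p = 5.35e-06) for Tnfr2-/-. The osteoclast protease gene Ctsk was at 39.7 and 40.0 FPKM in WT and 0.152 to 0.417 FPKM in the knockouts. Acp5, which encodes the tartrate-resistant phosphatase that cleaves phosphate from osteopontin, was at 291 and 299 FPKM in WT, 18.5 and 21.3 FPKM in Tnfr1-/- and 8.83 and 10.7 FPKM in Tnfr2-/-.

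For Gpnmb, 34 of 40 genes of the MiT/TFE factors, the lysosome and its partners were listed, with 31 called lower and 1 higher in each knockout. Over all genes 57.1% were called lower in Tnfr2-/- and 60.7% in Tnfr1-/-. The median difference of the list was -1.89 for Tnfr2-/- and -2.25 for Tnfr1-/-, against -0.74 and -0.83 over all genes. With median-ratio size factors 24 were called lower and 3 higher in Tnfr2-/-, against 1717 lower and 1787 higher of all 8191 genes. The factors themselves differed in size and direction of change. Tfec, a family member expressed mainly in macrophages, was at 44.9 and 43.6 FPKM in WT and 1.01 to 2.15 FPKM in the knockouts, with a difference of -4.08 (SE 0.18, limma adjusted p = 4.8e-05) for Tnfr2-/-. Mitf was at 11.1 and 10.3 FPKM and 1.27 to 2.12 FPKM, with a difference of -1.94 (SE 0.11, limma adjusted p = 0.000109). Tfe3 was at 34.1 and 32.1 FPKM and 17.1 to 20.3 FPKM, and its differences of -0.73 and -0.91 became 0.23 and 0.19 with median-ratio size factors. Tfeb ran the other way, at 10.3 and 10.2 FPKM in WT and 12.7 to 15.7 FPKM in the knockouts. Its differences of 0.54 for Tnfr2-/- and 0.31 for Tnfr1-/- were not called. With median-ratio size factors they became 1.44 and 1.35, both called higher. Sdc4, a proteoglycan that binds the GPNMB protein, was at 14.8 and 16.0 FPKM and 6.10 to 8.85 FPKM, and its Tnfr1-/- difference turned from -0.94 to 0.10. The 1 gene called higher was Sgsh, a lysosomal sulfatase that breaks down heparan sulfate, at 3.44 and 3.38 FPKM in WT and 7.97 to 9.60 FPKM in the knockouts.

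The genes around the members on their chromosomes were counted next. Over all genes 57.1% and 60.7% were called lower in Tnfr2-/- and Tnfr1-/-, and 13.6% and 14.1% higher. Within 300 kb of Spp1, 1 of 6 other protein-coding genes was listed, Pkd2, at 2.09 and 1.89 FPKM in WT and 0.361 to 0.918 in the knockouts, called lower in both. Its differences of -0.72 for Tnfr2-/- and -1.09 for Tnfr1-/- became -0.15 and -0.52 with median-ratio size factors, no longer called. Around Mmp12, 4 of 9 were listed. Mmp13 lay 61.0 kb and Mmp27 201.9 kb away, both called lower, Dcun1d5 lay 136.2 kb away and was called higher, and Mmp10 was at 0.124 FPKM in both WT samples and 0 in the knockouts. Around Gpnmb 7 of 15 were listed. Malsu1, its nearest listed neighbour at 2.9 kb, was at 1.75 and 1.97 FPKM in WT and 0.812 to 1.24 in the knockouts. The Malsu1 differences of -0.44 for Tnfr2-/- and -0.59 for Tnfr1-/- became 0.14 and 0.05 with median-ratio size factors. Gimap1, Gimap3, Gimap5, Tmem176a and Tmem176b were all called higher in both knockouts. Around Dcstamp 2 of 3 were listed, Dpys with WT values of 0.523 and 0.281 FPKM and knockout values up to 0.0147 FPKM, and Lrp12, 109.7 kb away, which was called lower at 70.3 and 68.5 FPKM in WT and 0.671 to 0.903 FPKM in the knockouts.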

How the data were processed

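Values were FPKM, deposited by the authors in one table of 6 samples. Submitters' notes name mm10, FastQC and edgeR, while the aligner, the annotation and the tool that made FPKM are not given in the sources used here. The authors also deposited an ANOVA p-value for each gene, not used here, and all 8191 listed genes have one under 0.05, so every gene tested had been selected for a difference. All 6 per-sample columns were mapped to a group by their names, and 0 were left unused. Depth is unknown, so no counting error is given.

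Differences are of log2(FPKM + 1), fitted for 3 comparisons in one model of all samples with limma 3.58.1 (lmFit, contrasts, eBayes with trend) in R 4.3.3, two-sided, with Benjamini-Hochberg adjustment over all 8191 genes. Genes with an adjusted p under 0.05 and a fold change over 1.5 were called. The steps were tested on simulated data. The study's methods give 2 independent experiments, each on pooled mice, so p-values measure the spread between pools. Members and lists were chosen with earlier results of these data known. Named genes were the 2 highest and the 2 lowest differences among called genes of each list in Tnfr2-/- against WT, direct partners of the members and the 3 genes with the nearest profile. Alternatives were a pseudocount of 0.1, genes with a mean of at least 1 FPKM, median-ratio size factors, quantile normalization, only the compared groups, the replicate number as a block, no trend, a fold change of 2 and each sample left out. Positions are from GENCODE M21 and promoters from RefSeq. Python 3.11.15, NumPy 2.4.6, pandas 2.3.3 and matplotlib 3.10.9 were used.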

Additional observations from a re-analysis of the deposited data

How the results depend on the processing

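With a pseudocount of 0.1, median-ratio scaling, quantile normalization or any 1 of the 6 samples left out, the differences of Spp1, Mmp12, Gpnmb and Dcstamp from WT were negative for both knockouts, from -11.95 to -3.77. The other alternatives concern only the tests over all genes and lists. The median of the 4 members was -9.43 for Tnfr2-/- minus WT, and -10.73 with a pseudocount of 0.1, -8.64 after median-ratio scaling and -8.54 after quantile normalization. For Tnfr1-/- minus WT it was -9.48, and -11.18, -8.68 and -8.62. With 1 sample left out it ranged from -9.47 to -9.38 and from -9.54 to -9.43. Between the knockouts it was 0.06, and 0.19 with a pseudocount of 0.1, from 0.01 to 0.11 with 1 sample left out. Dcstamp enters these medians with a value that the pseudocount sets. Genes called lower and higher in Tnfr2-/- than in WT, 4679 and 1115, became 1717 and 1787 after median-ratio scaling, 1866 and 1700 after quantile normalization, and 3008 and 678 at a fold change of 2. For Tnfr1-/-, 4973 and 1151 became 1814 and 1908, 2075 and 1752, and for the higher genes 728. Left-out samples gave 4355 to 4743 lower and 1072 to 1122 higher for Tnfr2-/-, and 4785 to 4975 and 1118 to 1160 for Tnfr1-/-. Between the knockouts, 50 lower and 69 higher genes became 79 lower with a pseudocount of 0.1, 146 higher among genes with a mean of at least 1 FPKM, 119 lower after median-ratio scaling, 119 and 125 after quantile normalization, 6 and 9 without trend and 21 and 28 at a fold change of 2. With only the knockouts in the model limma called 0 and 0, with 1436 genes at an unadjusted p under 0.05. Left-out samples gave 1 to 127 lower and 0 to 535 higher, the highest counts without Tnfr2-/- replicate 1. The replicate number as a block gave 5 lower and 2 higher between the knockouts. Samples with the same number deviated together little over all genes, with correlations of 0.02 to 0.05. With 2 samples a group, this cannot settle whether the numbers pair samples of the same experiment. The cause of these changes was not tested. Of the list counts against WT, 31 of 40 were within 1.5 times after median-ratio scaling and 30 of 40 after quantile normalization. Read depth was not used here, so it is unknown how firmly values near 0 in the knockouts stand above 0.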

Other observations

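Among the 23 genes listed at 0 in every knockout sample and at 1 FPKM or more in WT were the pigment enzyme genes Tyrp1 (2.12 and 2.03 FPKM in WT) and Dct (2.10 and 1.57 FPKM), which melanocytes are known for and which share the MiT/TFE factor Mitf with Gpnmb as a regulator. The same set held Car4, a membrane-bound carbonic anhydrase, at 7.44 and 9.55 FPKM, Hsd11b2, a cortisol-inactivating enzyme, at 8.42 and 6.83 FPKM, and Ptx3, a secreted pattern recognition protein, at 1.57 and 1.94 FPKM. These genes were named after their values were seen, and their differences were not tested apart from the fit over all genes.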
